A study of Mus musculus with 18 samples.

Results

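The livers labelled 7OFF were compared with the livers labelled 12, across all genes. The members of this comparison are the 3 libraries of 7OFF and the 3 libraries of group 12, chosen by their labels, which makes 6 of the 18 libraries of the series. Each library holds poly-A RNA from the liver of 1 mouse. All mice were injured with carbon tetrachloride at 0.5 µL per g of body weight, injected intraperitoneally in oil. Group 12 was sampled 12 days after the injury with MycER not activated. The labels give 7OFF as 7 days after the injury, also with MycER not activated. Group 12ON, used below as a reference, was sampled 12 days after the injury with MycER activated by 1 mg of tamoxifen injected daily. In the design text the OFF groups stand as time points to be set against 12ON, so the comparison with group 12 addresses what still differed from livers without activation at the last OFF time point. The labels do not say whether 7OFF mice had received tamoxifen earlier, whether group 12 received it, which promoter drives MycER, or the sex of the mice and the hour of sampling. The 2 groups also differ in the labelled day after injury, so an earlier activation and the time since injury cannot be told apart.

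In MycER the transcription factor MYC is joined to the part of the estrogen receptor that binds hormone, so that tamoxifen switches the protein on. MYC raises genes of ribosome production, nucleotide synthesis and cell division. Carbon tetrachloride is turned into a toxic radical by the enzyme Cyp2e1 in hepatocytes near the central vein, and the injury is followed by an acute phase response, by entry of macrophages and by regrowth of hepatocytes.

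The 6 libraries held 23.1 to 50.6 M gene counts. The liver label was borne out by its own transcripts: Alb, serum albumin, lay at 88450 to 95888 CPM (read counts scaled to the library size) in group 12 and at 47213 to 70364 CPM in 7OFF, while Prss1 of the pancreas was at 0 in all 6. Counts from mitochondrial genes made up 4.80% to 5.25% of each group 12 library and 5.54% to 6.19% of each 7OFF library, without overlap. Xist, which is transcribed from the inactive X chromosome of females, was at 263 CPM in group 12 replicate 3 and at 264 CPM in 7OFF replicate 3, and at most 1.75 in the other 4 libraries. 7OFF replicate 1 stood apart: the SD of its log2 differences was 0.42 and 0.50 against the other 7OFF libraries, where group 12 libraries differed among themselves by 0.34 to 0.39.

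Of 17789 genes tested, 439 were higher (2.47%) and 588 were lower (3.31%) in 7OFF than in group 12, together 1027 genes (5.77%). A gene was called at an adjusted p under 0.05, from a quasi-likelihood test in edgeR whose p-values were adjusted (Benjamini-Hochberg) over every gene tested. At least 2-fold differences made up 125 of the higher genes (0.703%) and 220 of the lower genes (1.24%). The median log2 fold change of all genes was 0.02. With library totals alone as the scale, 591 genes were higher and 361 lower, so that 62.1% of the calls were higher in place of 42.7%. The counts depend on single libraries: without 7OFF replicate 1 they were 163 higher and 187 lower, and without group 12 replicate 1 they were 133 and 237. Of the 113 genes named by the rule given with the processing that passed, 46 passed in each of the 6 fits that left out 1 library, and 67 missed the threshold in at least 1 of them. With only the 2 groups in the fit 50 of the 113 passed, and with a term for the mitochondrial share 64 did. The 6 libraries did not overlap for 999 of the 1027 called genes and for 22.9% of all genes. Genes named by the size of their fold were chosen for no overlap, so its mention for them is no further support. The plot of all genes shows the calls against expression level. For scale, 12ON and group 12 differed in 46.6% of the genes, and 7OFF and 12ON in 44%. These comparisons share libraries with the present comparison, and their values are given only side by side for single genes.

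**Figure D1:**
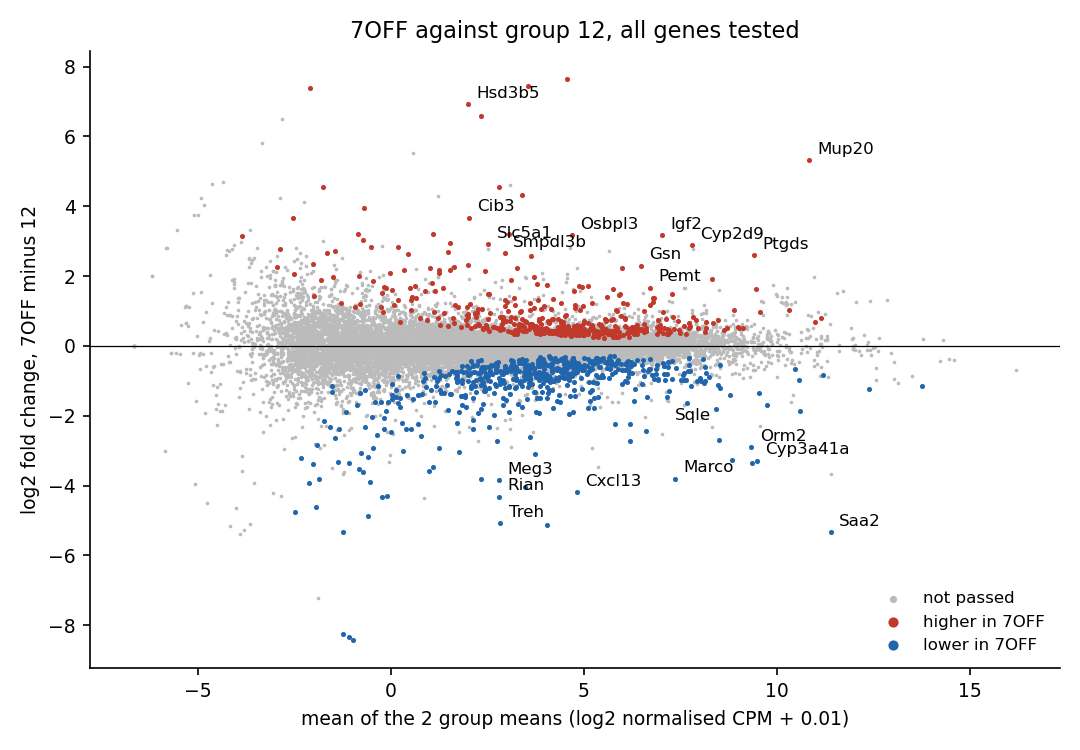
Each point is a gene tested, placed by the mean of its 2 group means (x axis, log2 normalised CPM + 0.01) and its log2 fold change, 7OFF minus 12 (y axis). Red points (439 genes) were higher and blue points (588 genes) lower in 7OFF at an adjusted p under 0.05, grey points did not pass, and 20 genes described in the text are named.

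A first set of genes was high in 7OFF, at levels closer on the log2 scale to 12ON than to group 12. Osbpl3, an oxysterol-binding protein, had the smallest p of all genes. It lay at 5.60, 5.42 and 4.50 CPM in group 12 and at 39.3, 57.1 and 42.3 CPM in 7OFF. Every 7OFF library lay far above every group 12 library. Its log2 fold change was 3.17 ± 0.22 (SE, n = 3 mice per group; adjusted p = 3.69e-06), and the mean of 12ON was 54.9 CPM, with a difference between 7OFF and 12ON of -0.25 ± 0.19 that did not pass (adjusted p = 0.325). Emp2, an epithelial membrane protein, was at 14.2, 12.5 and 14.3 CPM in group 12 and at 39.2, 46.7 and 49.9 CPM in 7OFF, a log2 fold change of 1.73 ± 0.17 (adjusted p = 0.000119). Its mean in 12ON was 40.7 CPM. Pemt makes phosphatidylcholine from phosphatidylethanolamine, a liver route to the phospholipid of bile and lipoproteins. It was at 38.8, 67.0 and 43.5 CPM in group 12 and at 186, 147 and 142 CPM in 7OFF (log2 fold change 1.67 ± 0.18, adjusted p = 0.000276).

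Further genes also lay closer to 12ON on the log2 scale. Slc5a1, the sodium-dependent glucose carrier best known from the gut, was at 0.88, 1.41 and 1.57 CPM in group 12 and at 10.6, 11 and 9.01 CPM in 7OFF, with 21.0 CPM as the mean of 12ON. Its log2 fold change was 2.93 ± 0.30 (adjusted p = 0.000147), with tight 7OFF values and no overlap. Cib3, a calcium-binding protein, was at 0.10, 0.35 and 1.03 CPM in group 12 and at 8.70, 8.09 and 5.94 CPM in 7OFF, a log2 fold change of 3.68 ± 0.52 (adjusted p = 0.00252), which became 4.88 without group 12 replicate 3. Mmp15, a membrane-bound matrix protease, was higher by 1.24 ± 0.17 and Slc6a6, the taurine carrier, by 0.76 ± 0.10. Zfp385a, a zinc finger protein, was higher by 0.70 ± 0.10, all on the log2 scale and with separate groups. For Slc6a6 and Zfp385a the differences between 7OFF and 12ON were 0.04 and -0.14 and did not pass (adjusted p = 0.80 and 0.252).

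A second set was higher than in group 12 but far below 12ON. Smpdl3b, a membrane-anchored sphingomyelinase-like enzyme, was at 2.65, 1.99 and 1.83 CPM in group 12 and at 11.6, 15.7 and 12.6 CPM in 7OFF. The groups were far apart (log2 fold change 2.66 ± 0.22, adjusted p = 2.71e-05), and 12ON stood at 142 CPM. Gsn, gelsolin, which cuts actin filaments, was at 24.6, 27.7 and 37.5 CPM in group 12 and at 62.2, 154 and 228 CPM in 7OFF, against 1217 CPM in 12ON. Its log2 fold change was 2.30 ± 0.39 (adjusted p = 0.00621), and the 7OFF libraries spread widely while staying above group 12. With only the 2 groups in the fit Gsn did not pass (adjusted p = 0.0638). Rragd, a GTPase that signals amino acids to mTORC1, differed by 2.13 ± 0.33 (adjusted p = 0.00439) and Gsta2, a glutathione transferase, by 2.25 ± 0.43 (adjusted p = 0.00922). Gsta1 and Gsta2 are near-identical in sequence and reads that fit both were not counted, so their levels are uncertain.

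Igf2, the fetal growth factor, was the one member of 20 fetal liver and progenitor genes tested that passed as higher. It was at 12.0, 27.7 and 37.3 CPM in group 12 and at 100, 105 and 496 CPM in 7OFF, against 4781 CPM in 12ON. 7OFF replicate 3 was far above the other 7OFF libraries, and all 3 lay above group 12. The log2 fold change was 3.18 ± 0.65 (adjusted p = 0.013). It became 1.99 without 7OFF replicate 3, and the call did not pass without group 12 replicate 1 (adjusted p = 0.0564). H19, the long non-coding RNA beside Igf2, was at 37.5, 96.2 and 146 CPM in group 12 and at 125, 101 and 665 CPM in 7OFF, with overlap and no call (1.67 ± 0.61, adjusted p = 0.119), where 12ON had a mean of 20260 CPM. In the same list Meg3, an imprinted non-coding RNA, and Igf2bp2, an RNA-binding protein, were lower. The call for Igf2bp2 was lost without group 12 replicates 1 and 2 (adjusted p = 0.0514 and 0.0547) and 7OFF replicates 1 and 2 (0.0711 and 0.0772). The plot of 12 genes in all groups shows these levels.

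**Figure D2:**
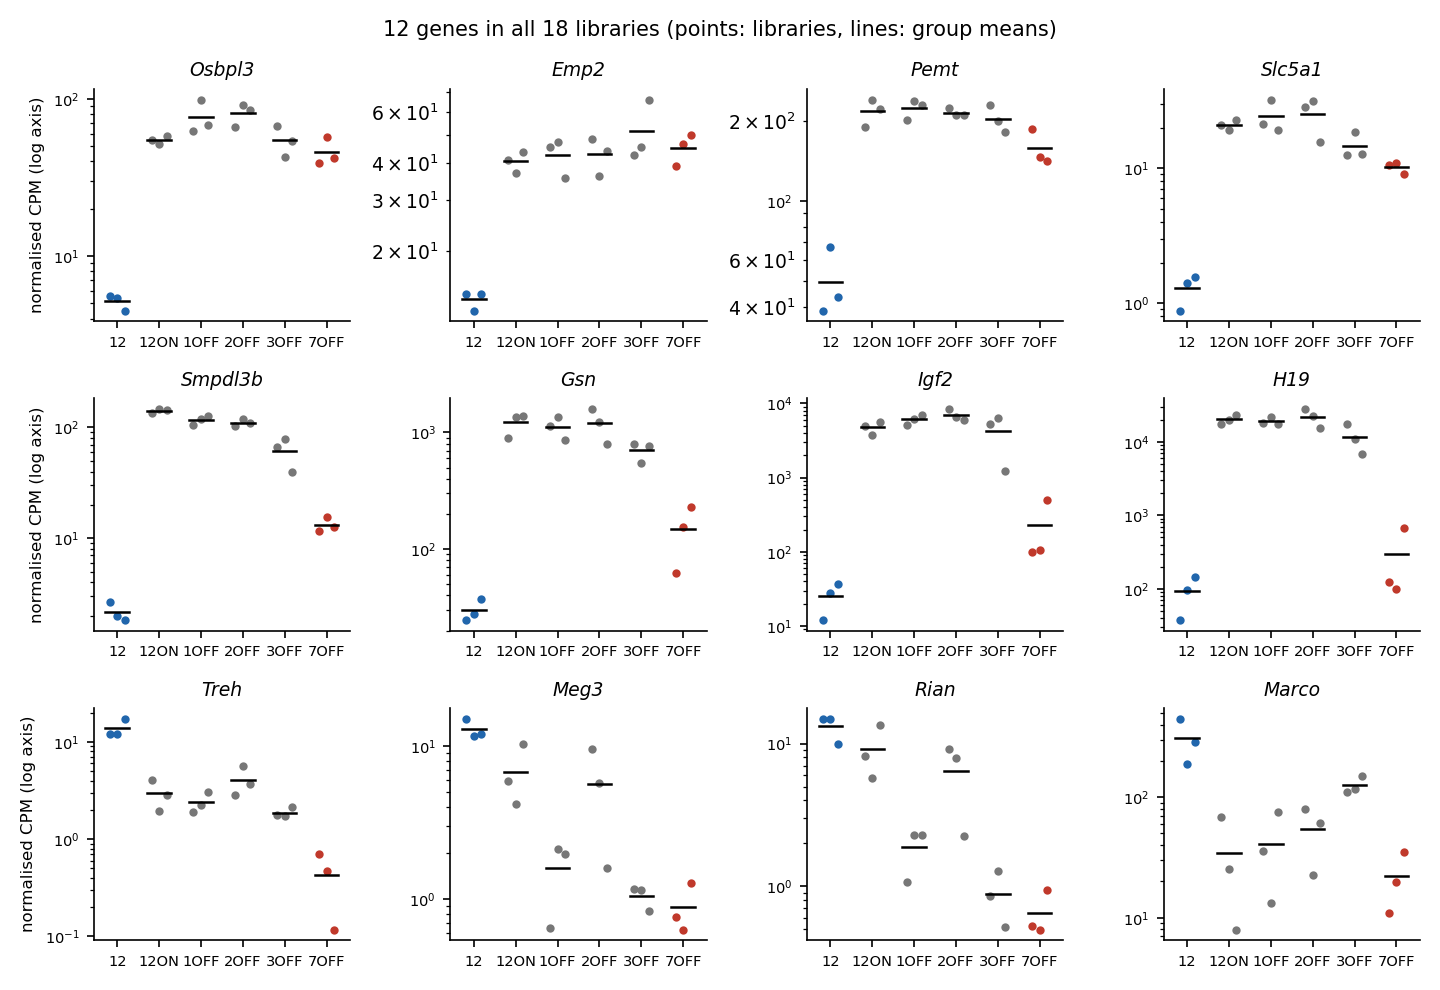
Normalised CPM (log axes) of 12 genes in each of the 18 libraries, in 6 groups of 3 mice, with points for libraries and lines for group means. Osbpl3 and Emp2 in 7OFF lie beside 12ON, Smpdl3b, Gsn, Igf2 and H19 lie between 12ON and group 12, and Treh, Meg3 and Rian lie below both.

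Another set had higher means in 7OFF than in both day 12 groups. Ptgds, which makes prostaglandin D2 and carries lipids, was at 137, 210 and 226 CPM in group 12 and at 564, 1953 and 953 CPM in 7OFF, with 518 CPM as the mean of 12ON. Replicate 1 of 7OFF lay close to that mean. The log2 fold change of Ptgds against group 12 was 2.60 ± 0.47 (adjusted p = 0.00782), and 1.99 without 7OFF replicate 2, the highest library. Mlxipl, the carbohydrate-response factor ChREBP that drives glycolytic and lipogenic genes, was at 179, 152 and 159 CPM in group 12 and at 275, 293 and 305 CPM in 7OFF. That is a log2 fold change of 0.83 ± 0.15 (adjusted p = 0.00767), and 1.46 ± 0.15 above 12ON (adjusted p = 5.51e-06). Paics, an enzyme of purine synthesis, was at 135, 139 and 119 CPM in group 12 and at 270, 191 and 180 CPM in 7OFF (0.71 ± 0.13, adjusted p = 0.00782), and 0.63 above 12ON (adjusted p = 0.000985).

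Keg1, a glycine N-acyltransferase-like gene, was at 32.4, 16.1 and 18.6 CPM in group 12 and at 197, 76.0 and 42.6 CPM in 7OFF. Its log2 fold change was 2.24 ± 0.45 (adjusted p = 0.0119), and 1.42 without 7OFF replicate 1. Gm15962 had a log2 fold change of 2.22, which became 1.40 without 7OFF replicate 1 (adjusted p = 0.0556). With only the 2 groups in the fit neither passed (adjusted p = 0.118 for Keg1 and 0.114 for Gm15962). Gm15962 lies on the other strand over the same stretch of chromosome 19 (chr19:12706055-12721247 within and beyond Keg1 at chr19:12695786-12719902, GRCm38). Reads were counted for each gene they overlapped and without strand, so the 2 cannot be told apart here.

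Neither part of the construct passed. Myc was at 6.23, 6.35 and 9.54 CPM in group 12 and at 3.77, 4.26 and 6.24 CPM in 7OFF, which touch at their edges (-0.64 ± 0.26, adjusted p = 0.159). Esr1 was at 41.2, 39.7 and 33.5 CPM in group 12 and at 14.7, 23.4 and 25.1 CPM in 7OFF (-0.85 ± 0.33, adjusted p = 0.135). The deposited counts do not tell reads of the fusion from those of the mouse genes. Among all genes 2.47% were higher, against which the next counts stand. Of 40 canonical MYC targets, 2 were higher and none lower: Npm1, nucleophosmin (0.38 ± 0.11, adjusted p = 0.0465), and Fbl, fibrillarin, which methylates ribosomal RNA (0.37 ± 0.10, adjusted p = 0.0422). The list's median was 0.13. Of 40 ribosome biogenesis genes 3 were higher (Utp4, Utp14a and Taf1d) and none lower, with a median of 0.14, and of 30 genes of nucleotide and one-carbon synthesis 3 were higher (Paics, Ppat and Impdh2), with a median of 0.08. Npm1 was at 350 CPM in 12ON and at 149 CPM in 7OFF, against 114 CPM in group 12. With only the 2 groups in the fit no member of these 3 lists passed. Leaving out single libraries ended most of these calls: without group 12 replicate 1 the adjusted p was 0.121 for Npm1, 0.139 for Fbl, 0.0980 for Utp4, 0.0996 for Utp14a, 0.161 for Taf1d and 0.134 for Impdh2, and without 7OFF replicate 1 it was 0.132, 0.104, 0.0808, 0.136, 0.102 and 0.114. Leaving out group 12 replicate 2, group 12 replicate 3 or 7OFF replicate 2 ended at least 5 of these 6 calls, and leaving out 7OFF replicate 3 ended those for Utp14a, Taf1d and Impdh2. Ppat was at 13, 12.0 and 13.7 CPM in group 12 and at 27.4, 18.4 and 17.2 CPM in 7OFF (0.70 ± 0.15, adjusted p = 0.0142), a call that held without any of these libraries but group 12 replicate 2 (adjusted p = 0.0505).

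None of 32 cytosolic ribosomal protein genes passed. All 32 estimates were above 0, with a median of 0.22 that lay between 0.20 and 0.30 under the other scalings. None of 30 mitosis genes passed either, and all 30 estimates were below 0, with a median of -0.75. Mki67, a marker of cycling cells, was at 9.29, 8.99 and 9.71 CPM in group 12 and at 3.21, 4.26 and 8.87 CPM in 7OFF (-0.76 ± 0.49, adjusted p = 0.387), with 7OFF replicate 3 close to group 12. Aurkb, a kinase of chromosome segregation, had the smallest p of that list (-1.50 ± 0.60, adjusted p = 0.152). Of 32 genes of G1/S and DNA replication none passed, with a median of -0.26.

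Some hepatocyte genes of the portal side were among the higher ones. Of 24 periportal genes tested 5 were higher and none lower, with a median of 0.44, against 2.47% higher among all genes. With only the 2 groups in the fit 0 passed, and 2 passed with a term for the mitochondrial share (median 0.28) or without the libraries with high Xist. Etnppl, a phosphoethanolamine lyase, was at 26.8, 26.3 and 43.1 CPM in group 12 and at 133, 62.5 and 70.8 CPM in 7OFF (1.47 ± 0.27, adjusted p = 0.00797). Cps1, the entry enzyme of the urea cycle, was at 1818, 1334 and 1726 CPM in group 12 and at 2854, 2752 and 2969 CPM in 7OFF, with no overlap (0.81 ± 0.19, adjusted p = 0.0207). Otc, the next enzyme of that cycle, differed by 0.66 ± 0.17 (adjusted p = 0.0375), Uox, urate oxidase, by 1.03 ± 0.26 and Hsd17b13, a lipid droplet enzyme, by 0.46 ± 0.10. Other urea cycle members did not pass: Arg1 was at 0.00 and Ass1 at 0.16 on the log2 scale. The call for Cps1 was lost with only the 2 groups in the fit (adjusted p = 0.117), with the mitochondrial term (0.0739) and without group 12 replicate 2 (0.0710) and 7OFF replicate 1 (0.0583), that for Uox without group 12 replicates 1 and 2 (0.0914 and 0.0930) and 7OFF replicate 1 (0.132), and that for Hsd17b13 without group 12 replicates 1 and 3 (0.0763 and 0.0640) and 7OFF replicate 2 (0.0794). Between 2 and 5 of the list passed when 1 library was left out, with 2 without group 12 replicate 1, group 12 replicate 2 or 7OFF replicate 1, and 3 without group 12 replicate 3 or 7OFF replicate 2.

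On the central side 1 of 24 perivenous genes passed. Slc13a3, a carrier of dicarboxylates, was at 45.5, 46.1 and 68.4 CPM in group 12 and at 13, 16.1 and 24.9 CPM in 7OFF (-1.56 ± 0.30, adjusted p = 0.00953). Glul, glutamine synthetase of the last cells around the central vein, was at 694, 570 and 703 CPM in group 12 and at 758, 594 and 787 CPM in 7OFF, a log2 difference of 0.12 ± 0.23, where 12ON stood at 244 CPM. Cyp2e1 was at 1656, 908 and 1461 CPM in group 12 and at 3374, 1606 and 2327 CPM in 7OFF, with overlap (0.86 ± 0.46, adjusted p = 0.291).

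Some sex-biased genes, which growth hormone pulses control, were among those with the highest folds, and they were uneven between the mice. Of 29 tested, 8 were higher and 2 lower, and the median of 1.40 became 0.00 without 7OFF replicate 1. Among all genes 2.47% were higher and 3.31% lower. With only the 2 groups in the fit 27 of the 29 were tested, and none passed in either direction (adjusted p = 0.132 for Mup20, 0.132 for Cyp2d9 and 0.0556 for Cyp3a44). The number higher was 2 without group 12 replicate 1, 0 without group 12 replicate 2, 1 without group 12 replicate 3 and 2 without 7OFF replicate 1. Mup20, the male urinary protein darcin, was at 150, 88.5 and 28.7 CPM in group 12 and at 9194, 1269 and 195 CPM in 7OFF. 7OFF replicate 1 was highest and 7OFF replicate 3 came near group 12. The log2 fold change was 5.32 ± 1.11 (adjusted p = 0.0145), and 3.04 without 7OFF replicate 1 (adjusted p = 0.0639). The call was also lost without group 12 replicate 2 (adjusted p = 0.0507), and the log2 fold change became 5.92 without group 12 replicate 1. Cyp2d9, a male-biased cytochrome, was at 72.8, 50.5 and 37.6 CPM in group 12 and at 853, 242 and 88.6 CPM in 7OFF (2.88 ± 0.60, adjusted p = 0.0145). Its log2 fold change was 1.63 without 7OFF replicate 1 (adjusted p = 0.0654). The gene passed neither without group 12 replicate 3 (0.0515) nor without group 12 replicate 2 (0.0502).

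Hsd3b5, a male-specific steroid dehydrogenase, rested almost wholly on 1 mouse. It was at 0, 0.13 and 0.04 CPM in group 12 and at 23.3, 0.36 and 0.19 CPM in 7OFF, and its log2 fold change of 6.93 became 2.10 without 7OFF replicate 1 (adjusted p = 0.26). It also failed to pass without any one of the group 12 libraries (adjusted p = 0.0889, 0.0685 and 0.0888 for replicates 1, 2 and 3). The log2 fold change was 7.91 without group 12 replicate 2. Cyp4a12b, a male-biased fatty acid hydroxylase, was at 69.2 CPM in the same mouse and at 0.04 to 0.86 CPM in the other 5 libraries, and Cyp4a12a, its near-identical neighbour, at 138 CPM against 0 to 2.19. The log2 fold change of Cyp4a12b was 7.44, and 2.01 without 7OFF replicate 1 (adjusted p = 0.444). It was 8.74 without group 12 replicate 1, 6.80 without group 12 replicate 3 and 8.03 without 7OFF replicate 3, and without group 12 replicates 1, 2 and 3 the adjusted p was 0.0887, 0.105 and 0.113. Elovl3, a fatty acid elongase, was at 37.3 CPM in that mouse and at 0.06 to 2.77 CPM in the other 5. Its log2 fold change of 4.56 became 1.47 without 7OFF replicate 1 (adjusted p = 0.373), was 5.26 without group 12 replicate 3, and did not pass without group 12 replicates 1, 2 and 3 (0.0996, 0.105 and 0.0747). With a term for high or low Xist in the fit 6 members were higher and 2 lower. Mup20, Cyp2d9 and Hsd3b5 passed in that fit (adjusted p = 0.0161, 0.0177 and 0.0361) and Elovl3 did not (0.108). Without the libraries with high Xist 4 were higher and 1 lower, and Hsd3b5 (0.0599) and Cyp4a12b (0.0609) did not pass.

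The lower members of that list were Cyp3a44 and Cyp3a41a. Without 1 library Cyp3a44 passed in each of 6 fits and Cyp3a41a in 5, and neither passed with only the 2 groups in the fit (adjusted p = 0.0556 and 0.0761). Cyp3a44 was at 476, 901 and 521 CPM in group 12 and at 37.4, 132 and 124 CPM in 7OFF, and every 7OFF library lay below every group 12 library (-2.69 ± 0.47, adjusted p = 0.00725). Cyp3a41a, a female-biased cytochrome like Cyp3a44, was at 963, 1832 and 1096 CPM in group 12 and at 34.5, 249 and 114 CPM in 7OFF (-3.29 ± 0.72, adjusted p = 0.0184). The log2 fold change was -4.12 without 7OFF replicate 2. The call was lost without 7OFF replicate 1 (adjusted p = 0.0602), with the mitochondrial term (0.0660) and without the libraries with high Xist. Cyp3a41b, a near-identical copy, had the like value of -3.34. It was -4.21 without 7OFF replicate 2 and did not pass without group 12 replicate 2 (adjusted p = 0.0524) or 7OFF replicate 1 (0.0654), and the split of reads between the copies is uncertain.

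**Figure D3:**
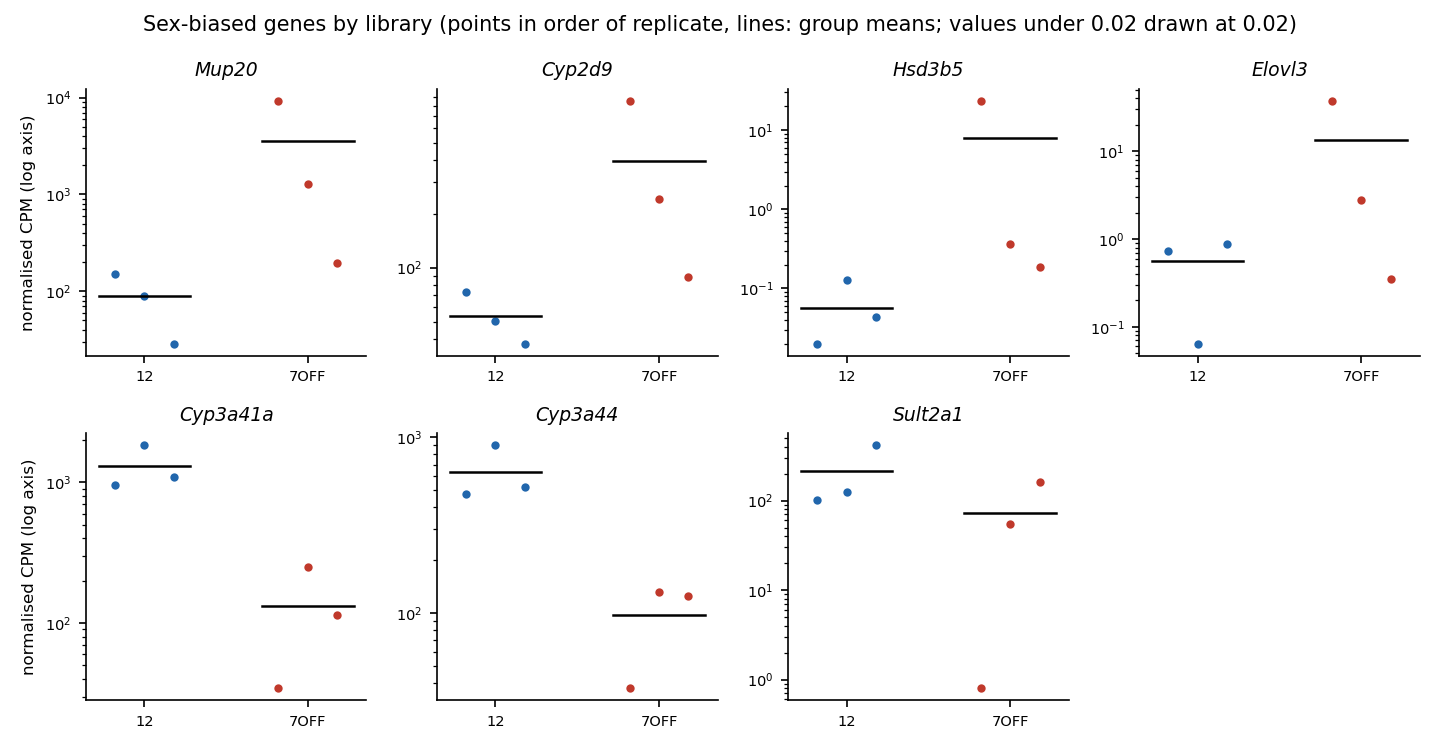
Normalised CPM (log axes) of 7 sex-biased genes in the 3 group 12 libraries and the 3 7OFF libraries, with points in order of replicate and lines for group means. Replicate 1 of 7OFF is the highest for Mup20, Cyp2d9, Hsd3b5 and Elovl3 and the lowest for Cyp3a41a, Cyp3a44 and Sult2a1.

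Genes of cholesterol synthesis were among the lower ones. Of 24 genes tested 13 were lower and none higher, with a median of -0.81, against 3.31% lower among all genes. Sqle, squalene epoxidase, the first oxygen-using step of sterol synthesis, was at 150, 279 and 197 CPM in group 12 and at 79.3, 56.6 and 91.5 CPM in 7OFF (-1.46 ± 0.23, adjusted p = 0.00484). Hmgcs1, which makes HMG-CoA, was at 595, 1106 and 1502 CPM in group 12 and at 379, 327 and 562 CPM in 7OFF (-1.34 ± 0.30, adjusted p = 0.0197). The groups did not overlap for either gene. Mvk, mevalonate kinase, differed by -1.06 ± 0.19 and Fdft1, squalene synthase, by -0.83 ± 0.16, with adjusted p of 0.00767 and 0.00980.

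Further members that passed were Msmo1, Idi1, Cyp51, Fdps, Dhcr7, Hsd17b7, Lss and Srebf2, from -1.16 for Msmo1 to -0.41 for Srebf2, the factor that drives the pathway. The means of 12ON lay near 7OFF for Sqle (85.7 CPM) and Hmgcs1 (471 CPM). The number of lower members was 12 without group 12 replicate 1 or 7OFF replicate 3, 6 without group 12 replicate 2, group 12 replicate 3 or 7OFF replicate 1, and 5 without 7OFF replicate 2, while the median stayed between -0.93 and -0.64. With a term for the mitochondrial share it was 6, without the libraries with high Xist 8, and with only these 2 groups in the fit 2.

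Because these members moved together, their promoters were searched for the core of a sterol response element, TCACNCCA on either strand, in the 250 bases before the start site (RefSeq, GRCm38.p6). The table held 19 promoters of 16 of the 24 genes, and 3 of the 19 (15.8%) had a match, against 1207 of all 32851 promoters (3.67%). Genes without an entry, among them Sqle, Fdft1 and Fdps, which passed as lower, were not searched. The 3 windows are shown 5′ to 3′ on the gene's strand with the match in capitals. It lies 177 to 170 bases before the start of Msmo1 (chr8:64733698-64733805, minus strand), 137 to 130 before that of Hmgcs1 (chr13:119690164-119690271, plus strand) and 162 to 155 before that of Srebf2 (chr15:82147057-82147164, plus strand).
Msmo1: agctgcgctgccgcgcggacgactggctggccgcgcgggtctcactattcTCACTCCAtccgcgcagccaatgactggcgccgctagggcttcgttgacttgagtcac
Hmgcs1: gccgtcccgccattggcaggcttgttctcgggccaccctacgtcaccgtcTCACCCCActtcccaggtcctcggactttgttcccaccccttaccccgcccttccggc
Srebf2: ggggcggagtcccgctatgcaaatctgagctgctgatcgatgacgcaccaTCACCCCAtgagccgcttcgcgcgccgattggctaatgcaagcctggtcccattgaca
A match describes the letters of the window only.

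Some acute phase genes, which hepatocytes switch on in inflammation, were lower as well. Of 29 tested 11 were lower and 18 did not pass, with a median of -1.15, against 3.31% lower among all genes. Saa2, serum amyloid A, was at 2464, 12398 and 931 CPM in group 12 and at 232, 39.5 and 119 CPM in 7OFF. Group 12 replicate 2 was far above the others, and all 3 lay above 7OFF (-5.34 ± 1.44, adjusted p = 0.0415). The log2 fold change was -3.70 without that library (adjusted p = 0.129) and -6.05 without 7OFF replicate 1 (0.0925). The call was also lost without group 12 replicate 1 (0.0668) and 7OFF replicates 2 and 3 (0.122 and 0.0866). Orm2, an acid glycoprotein, was at 1276, 1525 and 618 CPM in group 12 and at 134, 130 and 197 CPM in 7OFF, a steadier difference of -2.89 ± 0.54 (adjusted p = 0.00917). Serpina3g, a protease inhibitor, was at 37.5, 50.3 and 30.8 CPM in group 12 and at 15.5, 11.9 and 16.1 CPM in 7OFF (-1.45 ± 0.24, adjusted p = 0.00567). Saa2 and Orm2 have close paralogs, so their exact levels are uncertain.

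The remaining lower members were Orm1, Lcn2, Saa3, Steap4, Serpina3n, Itih4, Hpx and Cp. Haptoglobin (Hp, -0.85 ± 0.29, adjusted p = 0.0948) and fibrinogen (Fga, -1.05 ± 0.38, adjusted p = 0.116) did not pass. The means of 12ON lay near 7OFF for Orm2 (97.4 CPM) and Serpina3g (12.8 CPM). Only 2 members passed without group 12 replicate 1, group 12 replicate 2, 7OFF replicate 1 or 7OFF replicate 2, 12 passed without group 12 replicate 3 and 10 without 7OFF replicate 3. With a term for the mitochondrial share 2 passed, and with only these 2 groups in the fit 3 passed.

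Macrophage genes were among the lower ones in 2 marker lists. In bulk liver, fewer cells of a type and less RNA per cell cannot be told apart. Of 27 monocyte and macrophage markers 12 were lower and none higher, with a median of -0.68, against 3.31% lower among all genes. Their summed level was 1834 to 2031 CPM in group 12 and 1182 to 1364 CPM in 7OFF. Fcer1g, a signalling chain of Fc receptors, was at 29.7, 27.1 and 26.8 CPM in group 12 and at 14.4, 14.8 and 15.8 CPM in 7OFF. Both groups were tight and far apart (-0.89 ± 0.15, adjusted p = 0.00587). Cd68, a lysosomal glycoprotein of macrophages, was at 33, 26.0 and 28.7 CPM in group 12 and at 16.2, 15.1 and 19.8 CPM in 7OFF (-0.77 ± 0.14, adjusted p = 0.00767). Ctss, the cathepsin that trims the invariant chain for antigen presentation, differed by -0.93 ± 0.18 (adjusted p = 0.00898), and Lgals3, galectin 3, by -0.88 ± 0.17 (adjusted p = 0.0106). Csf1r and Adgre1 (F4/80), defining genes of the lineage, were lower by -0.98 and -1.01.

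Several of these genes were also below 12ON. The difference between 7OFF and 12ON was -1.04 ± 0.14 for Cd68 (adjusted p = 3.19e-05), -1.44 for Lgals3 (adjusted p = 1.59e-05) and -0.76 for Ctss (adjusted p = 0.00258), while Csf1r (-0.09, adjusted p = 0.754) and Adgre1 (-0.01, adjusted p = 0.966) did not pass there. Ifi30, the thiol reductase of antigen processing, was at 60.9, 45.3 and 51.6 CPM in group 12 and at 18.1, 21.5 and 25.5 CPM in 7OFF (-1.27 ± 0.15, adjusted p = 0.000752), and -1.34 below 12ON (adjusted p = 9.78e-06). Ccr2 and Ly6c2, linked to recently entered monocytes, did not pass, with log2 fold changes of 0.06 and -0.18. Trem2, at 0.05, did not pass either. Lyz2, also chosen as a monocyte marker, went the other way. It was at 520, 321 and 339 CPM in group 12 and at 184, 201 and 249 CPM in 7OFF. Its groups did not overlap, as held for 11.5% of all genes in that direction. The number of lower macrophage markers was 4 without 7OFF replicate 1, 6 without group 12 replicate 1, 7 without 7OFF replicate 2 and 9 to 12 without each other library. It was 7 without the libraries with high Xist or with only the 2 groups in the fit.

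Kupffer cells are the resident macrophages of the liver, and 6 of 14 of their markers were lower and none higher, with a median of -0.65, against 3.31% lower among all genes. Their summed level was 1806 to 2173 CPM in group 12 and 1053 to 1317 CPM in 7OFF. Marco, a scavenger receptor for bacteria, had the widest gap, at 448, 189 and 288 CPM in group 12 and at 11, 19.9 and 35.4 CPM in 7OFF (-3.80 ± 0.77, adjusted p = 0.0124). Without 7OFF replicate 1 its call did not pass (adjusted p = 0.0580). Cd5l, a secreted protein of tissue macrophages, was at 563, 467 and 517 CPM in group 12 and at 220, 222 and 232 CPM in 7OFF (-1.20 ± 0.24, adjusted p = 0.0123). Timd4, the phosphatidylserine receptor of embryonically seeded Kupffer cells, differed by -1.59 ± 0.37 (adjusted p = 0.0214), with adjusted p of 0.0769, 0.0817 and 0.0535 without group 12 replicate 1, 7OFF replicate 1 and 7OFF replicate 2. Clec4f (-0.57 ± 0.20, adjusted p = 0.111) and Vsig4 (-0.66 ± 0.24, adjusted p = 0.114), which also define these cells, did not pass, although neither had overlapping groups, as held for 11.5% of all genes in that direction. The number of lower Kupffer markers was 5 without group 12 replicate 2 or 7OFF replicate 3, 4 without group 12 replicate 3, 3 without group 12 replicate 1 or 7OFF replicate 2, and 2 without 7OFF replicate 1. It was 3 with a term for the mitochondrial share and 1 without the libraries with high Xist.

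**Figure D4:**
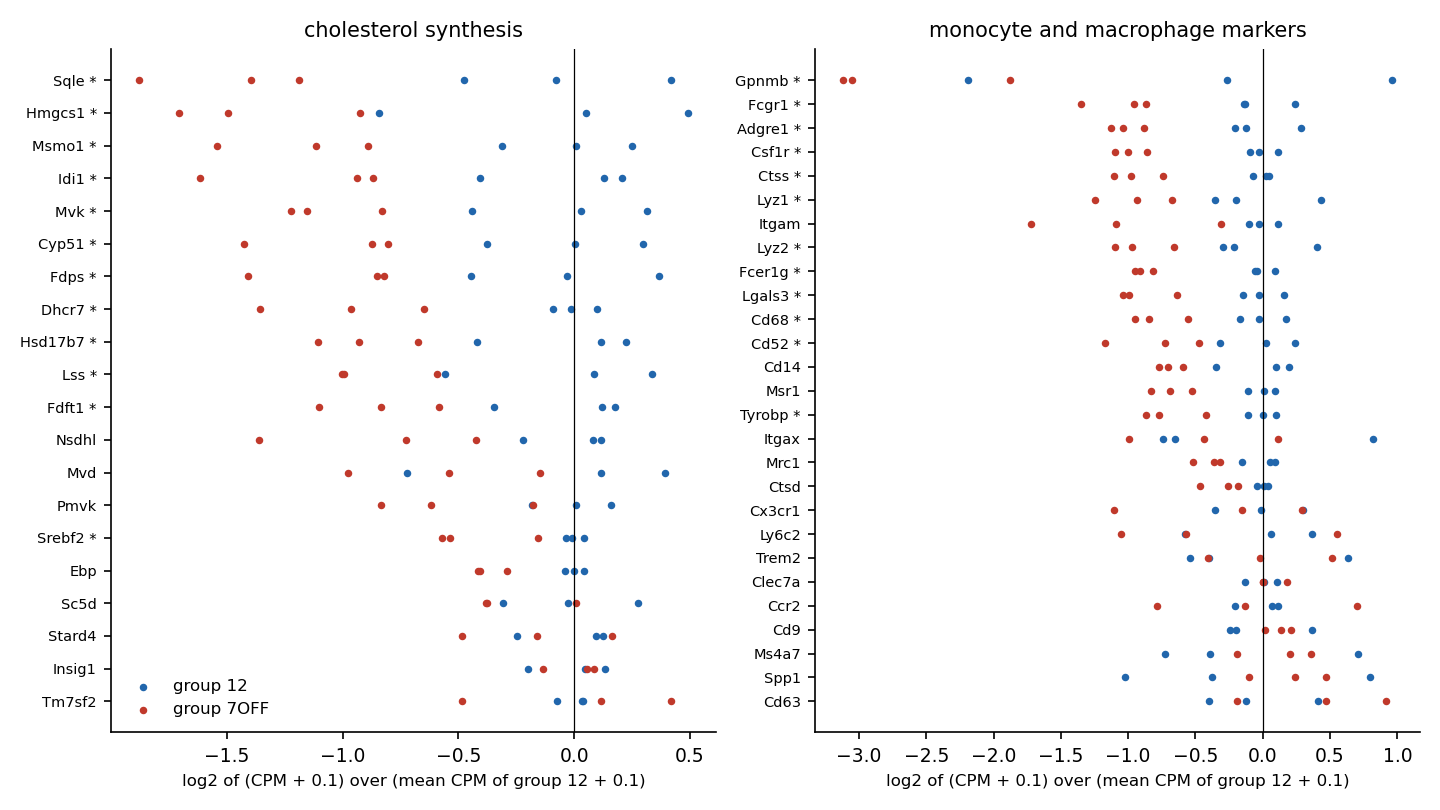
Level of 20 genes of the cholesterol synthesis list (left) and of the 27 monocyte and macrophage markers (right) in each library, as the log2 ratio of CPM + 0.1 to the mean of group 12 + 0.1 (x axis), with group 12 in blue, 7OFF in red and a star beside genes with an adjusted p under 0.05. Red points lie left of blue points for most members, among them 12 of the 20 and 12 of the 27, which passed.

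Signals that macrophages and injured liver release held lower members too. Of 25 chemokines and cytokines tested 5 were lower and none higher, with a median of -0.72, against 3.31% lower among all genes. The mitochondrial share separates the groups, and 1 member passed once the fit held a term for it: the adjusted p was then 0.0566 for Ccl2, 0.0559 for Ccl6 and 0.0631 for Cxcl13. With only the 2 groups in the fit 3 passed. Cxcl13, which draws B cells, was at 98.2, 38.5 and 23 CPM in group 12 and at 2.27, 3.77 and 2.65 CPM in 7OFF (-4.18 ± 0.94, adjusted p = 0.0196). Its log2 fold change was -3.40 without group 12 replicate 1 (adjusted p = 0.0740). The call was also lost without 7OFF replicates 1 and 2 (0.0746 and 0.0577). Tgfb1, the main fibrogenic cytokine, was at 31.3, 24.1 and 27.8 CPM in group 12 and at 15.1, 16.1 and 18.2 CPM in 7OFF (-0.75 ± 0.14, adjusted p = 0.00922). Ccl2, Ccl6 and Cxcl1 also passed as lower. The number of lower members was 2 without group 12 replicate 1, 7OFF replicate 1 or 7OFF replicate 2, and 4 to 6 without each other library. The complement genes C1qa, C1qb and C1qc, which macrophages make, were the 3 lower of 29 genes of complement and coagulation, at -0.80, -0.81 and -0.84. Without group 12 replicate 1 their adjusted p was 0.0986, 0.0541 and 0.0616, without 7OFF replicate 1 it was 0.0879, 0.0509 and 0.0605, and without 7OFF replicate 2 it was 0.0650 for C1qa and 0.0523 for C1qc. No gene of that list passed with the mitochondrial term or without the libraries with high Xist.

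Other blood and sinusoidal cell markers seldom passed, although several of their sums lay apart. The summed level of 20 sinusoidal endothelial markers was 883 to 1041 CPM in group 12 and 725 to 875 CPM in 7OFF, and 2 of 20 passed as lower, Cdh5 and Plxnc1. None of the 20 passed without group 12 replicate 1, group 12 replicate 3, 7OFF replicate 1 or 7OFF replicate 2, with only the 2 groups in the fit, or without the libraries with high Xist. For Cdh5 the adjusted p was 0.111, 0.0701, 0.106 and 0.0703 without those 4 libraries in turn, and for Plxnc1 it was 0.164, 0.0815, 0.105 and 0.149, and 0.0549 without group 12 replicate 2. The sums did not overlap for T and NK cell markers (12.7 to 16.6 against 9.33 to 12.4 CPM), B and plasma cell markers (263 to 304 against 152 to 241 CPM) and erythroid and platelet markers (275 to 299 against 125 to 189 CPM), and no member of these 3 lists passed. The hemoglobin genes Hba-a1, Hba-a2, Hbb-bs and Hbb-bt had log2 fold changes between -1.47 and -1.35 and did not pass in the fit of all 18 libraries. Among them Hba-a2 was at 62.2, 64.8 and 56.9 CPM in group 12 and at 22.8, 18.8 and 24.9 CPM in 7OFF. With only the 2 groups in the fit 5 erythroid and platelet markers passed as lower, and Hba-a2 had an adjusted p of 0.00879. Without the libraries with high Xist 4 of these markers were lower and 1 higher. With a term for the mitochondrial share 0 passed. Sums of stellate cell, collagen, cholangiocyte and neutrophil markers overlapped between the groups. The part of these cell types, and of the mitochondrial share, in the other results was not tested beyond the values given.

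The lower genes with the smallest p lay outside these lists. Treh, trehalase, a sugar-splitting enzyme of brush borders, was at 12.0, 12.1 and 17.3 CPM in group 12 and at 0.70, 0.47 and 0.12 CPM in 7OFF, the smallest p of the lower genes (-5.07 ± 0.45, adjusted p = 4.41e-05). Its log2 difference from 12ON, which had a mean of 2.95 CPM, was -2.84 (adjusted p = 0.000111). Mapkapk2, a kinase downstream of p38, was at 240, 167 and 216 CPM in group 12 and at 86.6, 71.9 and 98.7 CPM in 7OFF (-1.28 ± 0.15, adjusted p = 0.000574), with 83.3 CPM in 12ON. Calm2, a calmodulin gene, was lower by -0.99 ± 0.12 (adjusted p = 0.00126), L3mbtl3, a reader of methylated histones, by -0.76 ± 0.10 and Zfp641, a zinc finger protein, by -2.07 ± 0.26. Fth1, the heavy chain of ferritin, was at 1634, 1729 and 1846 CPM in group 12 and at 1106, 966 and 1209 CPM in 7OFF (-0.67 ± 0.12, adjusted p = 0.00753).

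Meg3 and Rian are long non-coding RNAs of 1 imprinted cluster on chromosome 12, made from the maternal copy. Meg3 (chr12:109541001-109571726, plus strand, GRCm38) was at 15.2, 11.7 and 12.0 CPM in group 12 and at 0.77, 0.63 and 1.27 CPM in 7OFF (-3.85 ± 0.58, adjusted p = 0.00388). Rian (chr12:109603940-109661716, plus strand), 32.2 kb further on, was at 15, 14.8 and 9.91 CPM in group 12 and at 0.52, 0.50 and 0.94 CPM in 7OFF (-4.32 ± 0.54, adjusted p = 0.00126). For both genes every 7OFF library lay below every group 12 library, which the rule for naming genes by fold size asked for. Against 12ON, Meg3 was lower by -2.93 and Rian by -3.79 (adjusted p = 0.000708 and 5.51e-05).

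The other groups were not uniform for this cluster. Rian lay at 1.07, 2.30 and 2.28 CPM in 1OFF, at 9.20, 7.93 and 2.24 CPM in 2OFF and at 0.85, 1.27 and 0.52 CPM in 3OFF. The mean in 12ON was 9.19 CPM, so 1OFF and 3OFF were low, and 2 of 3 libraries of 2OFF were not. Mirg, another RNA of the cluster with its level near 1 CPM in group 12, was lower too (1.02 ± 0.43 CPM in group 12 and 0.09 ± 0.07 in 7OFF, SD, n = 3, adjusted p = 0.00655), as was Rtl1 at 0.33 and 0.01 CPM (adjusted p = 0.0299). Rtl1 lies on the minus strand, unlike the other genes named here. Reads were counted without strand, so RNA from the opposite strand cannot be told from Rtl1. Dlk1, a paternally expressed gene at the edge, was under 1 CPM in both groups, at 0.22 and 0.09 CPM (adjusted p = 0.688), against 53.1 CPM in 12ON. Mirg, Rtl1 and Dlk1 were looked up after the values of Meg3 and Rian had been seen.

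More of the lower genes with the largest folds were Sfrp5, a secreted WNT inhibitor (-5.13), Ccn5, a matricellular protein (-4.05), Crybb3, a crystallin (-3.80), Lrtm1 (-3.10), Ly6d (-2.74) and Bmper, a binding protein of bone morphogenetic proteins (-2.72 ± 0.49, adjusted p = 0.00767). Bmper was at 7.47, 18.6 and 8.68 CPM in group 12 and at 1.05, 2.07 and 2.09 CPM in 7OFF. Group 12 replicate 2 was the highest library for Bmper, Sfrp5, Crybb3 and Ly6d. Without it the log2 fold changes were -4.26 for Sfrp5, -2.40 for Crybb3 and -2.08 for Ly6d. Without 7OFF replicate 1 the adjusted p was 0.0536 for Sfrp5 and 0.0654 for Ccn5, and without group 12 replicate 1 it was 0.0600 for Ccn5. Without 7OFF replicate 2 it was 0.0619 for Lrtm1, while the log2 fold changes became -5.78 for Sfrp5 and -5.38 for Ccn5. Without 7OFF replicate 3 the log2 fold change of Crybb3 was -4.93. Crybb3 passed neither with only the 2 groups in the fit (adjusted p = 0.115) nor with the mitochondrial term (0.0744). Ccn5 did not pass with only the 2 groups in the fit either (0.0512).

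**Figure D5:**
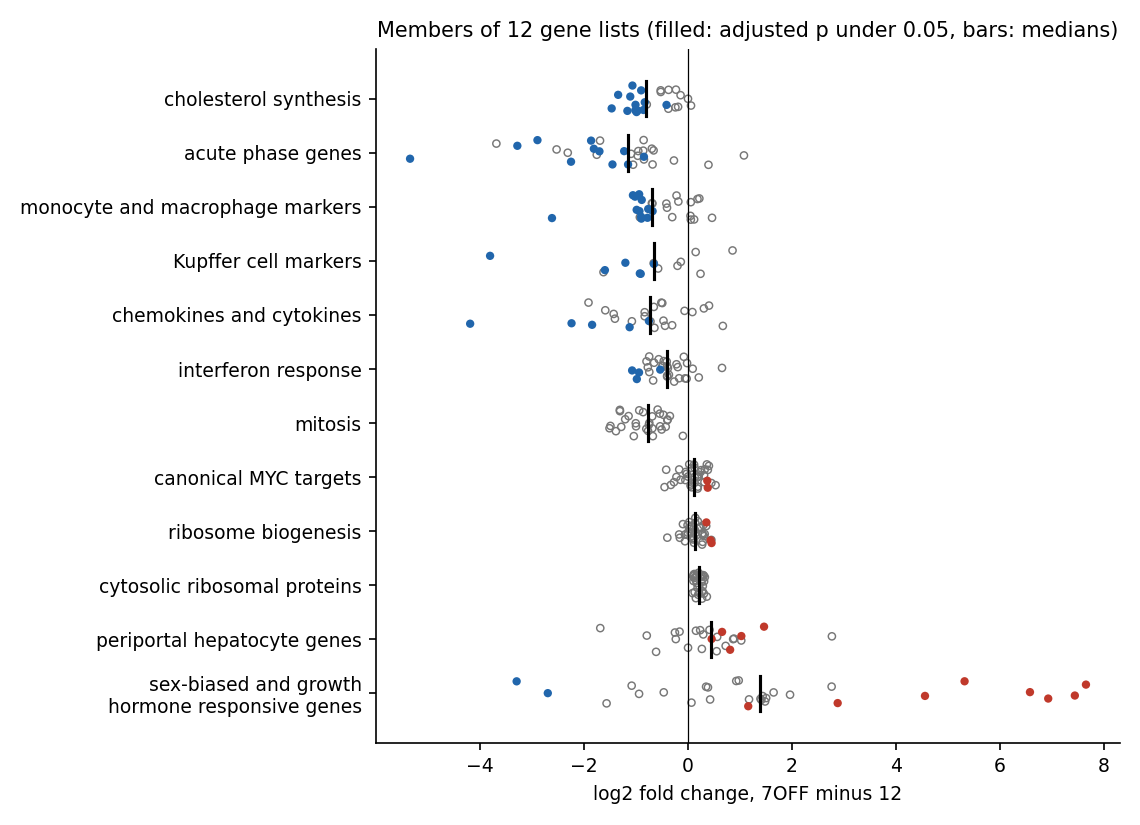
Log2 fold change, 7OFF minus 12 (x axis), of each tested member of 12 gene lists (y axis), with filled points for an adjusted p under 0.05 and bars for medians. The medians of the cholesterol, acute phase, macrophage, Kupffer, chemokine and mitosis lists lie between -1.15 and -0.65, and filled points are absent for mitosis and cytosolic ribosomal proteins.

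The remaining lists had few members past the threshold. Among all genes 3.31% were lower and 2.47% higher. In lists this small 1 member called makes a share of 3.1% (collagen and matrix genes) to 10% (MHC class II), which rests on that 1 gene. Lower members were 4 of 31 interferon response genes (among them Gbp2, Gbp3 and Ifi44, median -0.40, and 0 of 31 without any one of group 12 replicate 1, 7OFF replicate 1 and 7OFF replicate 2 or with the mitochondrial term), 3 of 20 iron handling genes (Fth1, Cp and Slc39a14), 2 of 26 p53 targets and CDK inhibitors (Gadd45a and Fas), 2 of 22 drug metabolism genes (Cyp2b10 and Cyp3a16), and 1 each of 10 MHC class II genes (Ctss), 24 hepatocyte transcription factors (Hnf4g), 28 secreted hepatocyte proteins (Serpina10), 24 genes of the unfolded protein response (Chac1) and 27 genes of fatty acid oxidation (Fgf21). Higher members were 3 of 21 fatty acid synthesis genes (Mlxipl, Scd2 and Elovl3), 2 of 22 glutathione transferases, 2 of 24 matrix proteases and inhibitors (Mmp15 and Serpine2), 2 of 21 chaperones (Hspa8 and Hspb1), and 1 each of 29 genes of gluconeogenesis and amino acid catabolism (Tdo2), 28 nuclear oxidative phosphorylation genes (Ndufb5) and 20 cholangiocyte markers (Epcam). Glycolysis had 2 higher and 2 lower of 25, collagen and matrix genes 1 and 1 of 32, and growth factors and YAP targets 1 and 1 of 23. No member passed among 26 bile acid, 20 lipid droplet, 13 mitochondrially encoded, 23 NRF2, 25 immediate early, 19 circadian clock, 22 stellate cell, 13 neutrophil and 6 other organ genes. The lists overlap in some genes, such as Ctss and Cp. Of the genes named for these lists, Fth1, Ctss, Mlxipl, Gsta2, Mmp15 and Epcam passed in each of the 6 fits without 1 library, and the others did not in at least 1. Tdo2 had a log2 fold change of 1.63, and 0.97 without 7OFF replicate 1 (adjusted p = 0.132). Serpina10 had -1.41, and -0.70 without group 12 replicate 2.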

How the data were processed

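Livers were measured by poly-A RNA sequencing, with 50 nt single reads and a library for each mouse. The submitters' processing notes name Trim Galore for trimming, TopHat2 for alignment and mm10 as the build. Versions are not given in the sources used here. Per the file headers, the authors' counting tool was featureCounts 1.5.0-p1, run unstranded over Ensembl 82 exons (GRCm38) and asking for 10 overlapping bases. A read overlapping several genes counted for each, and multi-mapping reads were left out. The deposited values are raw counts of 34937 genes, and 34599 of them matched a symbol in a table of gene names. The 6 libraries compared held 23.1 to 50.6 M counts, which sets their precision. Replicates were not copies: their chi-square per gene was 93 to 310.

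Counts of all 18 libraries were fitted together (edgeR 4.0.16, R 4.3.3, TMM scaling, filterByExpr at a minimum count of 10). The fit kept 17789 genes, had 12 residual degrees of freedom and estimated a biological coefficient of variation of 0.202. The two-sided contrast was 7OFF minus 12. To obtain the SE, the log2 fold change was divided by the square root of its F. In a simulation of 17596 genes for this comparison, the share of changed genes that was called was 22.4% at 1.5-fold, 60% at 2-fold, 92% at 4-fold and 84% at 8-fold, beside 2 false calls. It changed 49 or 50 genes at each fold, in 7OFF only. Counts were drawn around the means of all 18 libraries with the fitted spread of each gene. Mice that stand apart, such as 7OFF replicate 1, were not simulated, so recovery and false calls in these data can differ.

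Members and the 48 gene lists were chosen with earlier results of these data known. The genes named follow a rule, which takes both parts of the construct (Myc, Esr1), the 15 highest and 15 lowest folds among called genes with at least 4 CPM and no overlap of the libraries, the 8 smallest p in each direction, and up to 4 members per list and direction. Further list members, such as Hmgcs1, Otc, Csf1r, Mki67, Glul and H19, were named after their values had been seen. Some members are counted in their lists and not reported here by name. Alternatives were other scalings and filters, DESeq2 1.42.0, a replicate block, a fit with only the 2 groups compared, a test for changes beyond 1.5-fold, a stricter threshold, terms for Xist and for the mitochondrial share, and leaving out libraries.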

Additional observations from a re-analysis of the deposited data

How the results depend on the processing

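No gene called in 7OFF against group 12 changed direction under any of the 19 alternatives. Counts are given as genes higher, genes lower, and those at least 2-fold higher and lower. Against 439, 588, 125 and 220, they were 45, 171, 31 and 109 with only these 2 groups in the fit, 16, 23, 16 and 23 in a test against a 1.5-fold change, 182, 235, 69 and 101 with a term for the mitochondrial share, 736, 942, 190 and 291 with DESeq2, and 65, 114, 33 and 60 at an adjusted p under 0.01. They were 239, 315, 120 and 187 without the libraries with high Xist, and 591, 361, 151 and 172 with library totals as the scale. Leaving out 1 library gave 133 to 577 higher, 187 to 687 lower, 57 to 193 at least 2-fold higher and 80 to 312 at least 2-fold lower. The cause of these shifts was not tested. Fits without a library hold fewer samples. Other scalings and filters stayed within 1.5 times. Same-numbered libraries of the 2 groups had correlations of deviations of 0.147, 0.0752 and 0.355, and differently numbered ones of -0.271 to 0.148. Replicate 3 was the library with high Xist in both groups. These values do not settle whether the numbers mark pairs, and the main fit did not take them as pairs. A replicate block gave 427, 598, 113 and 208. Without a filter on low counts 25852 genes were tested. With 3 mice a group and 60% recovery of 2-fold changes in simulation, a gene that did not pass is not shown to be equal.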

Other observations

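Cells of other organs left little trace in the 6 libraries. Adipoq of fat cells was at 0 CPM in group 12 and at most 0.21 CPM in 7OFF, and Ckm of muscle was at most 0.05 CPM in either group. Alas2, the heme synthesis enzyme of red cell precursors, differed from the hemoglobin genes: it was at 14.3, 8.57 and 7.90 CPM in group 12 and at 77.7, 25.3 and 6.64 CPM in 7OFF, with 7OFF replicate 1 highest (1.84 ± 0.61, adjusted p = 0.0887, no call). Scd1, the stearoyl-CoA desaturase of hepatocytes, was at 2279, 1125 and 1628 CPM in group 12 and at 5747, 4786 and 4492 CPM in 7OFF, without overlap and without a call (1.58 ± 0.51, adjusted p = 0.0829), while Scd2 was higher (1.49 ± 0.41, adjusted p = 0.0437). The call for Scd2 was lost without any one of the 6 libraries, with adjusted p from 0.0713 to 0.126.

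Gldn, Rbp2 and Scgb1a1 were at 0 CPM in each 7OFF library and at means of 1.00, 0.82 and 0.92 CPM in group 12. They passed as lower and lie under the level asked for naming by size, and they were singled out after their values had been seen.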
